A study of Homo sapiens with 6 samples.

Results

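The 32 genes described here encode 18 enzymes of cholesterol synthesis, 7 proteins that sense or handle sterols, and 7 enzymes of fatty acid synthesis and desaturation. They were taken by symbol from a table of 59074 genes, and all 32 were listed in it. RNA was sequenced from LN-229, T98G and U251, established human glioblastoma cell lines, after HOTAIRM1 knock-down or control transfection. HOTAIRM1 is a long non-coding RNA transcribed from the HOXA gene cluster. Cells labelled siHOTAIRM1 received a siPOOL, a pool of small interfering RNAs, against this transcript, and cells labelled siControl received a non-target siPOOL. Both were harvested 72 h after transfection, with 1 library per cell line and condition and 6 libraries in all. The knock-down was transient, the cells were grown in medium with fetal bovine serum, and each line descends from a single tumour. The sample titles spell the first line LNT229 and its cell line entry LN-229, the name used here. Because a condition had 1 library in each line, no test was made within a line, and the knock-down test took the 3 lines as replicates.

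Cholesterol is built from acetyl-CoA through the mevalonate pathway to farnesyl diphosphate and squalene, which is then cyclised and trimmed to cholesterol. The transcription factors SREBP-1 and SREBP-2, encoded by SREBF1 and SREBF2, switch on most genes of this route and of fatty acid synthesis. The escort protein SCAP carries them out of the endoplasmic reticulum when sterols are scarce, and INSIG1 and INSIG2 hold them back when sterols are plentiful. ABCA1, which exports cholesterol, is driven by the oxysterol receptors LXR and responds to sterols in the opposite direction. Glial cells make their own cholesterol, since the sterol does not cross the blood-brain barrier, and glioblastoma cells can in addition take it up.

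The targeted transcript was checked first. In CPM, reads scaled to the size of the library, HOTAIRM1 was at 1.99 in siControl and 0.952 in siHOTAIRM1 cells of LN-229, at 3.49 and 2.15 CPM in T98G, and at 1.27 and 0.623 CPM in U251. It was lower after knock-down in all 3 lines, by 52.2%, 38.5% and 51.1% (log2 ratios -1.07, -0.70 and -1.03). The test over the lines used log2(CPM + 1), and the added 1 shrinks changes of genes at so low a level. With 0.1 added instead, the fitted change of HOTAIRM1 was -0.87. On the scale of log2(CPM + 1) it fell past the threshold (log2 change -0.54, SE 0.12, adjusted p = 0.0146, limma with Benjamini-Hochberg adjustment). This call was lost without LN-229 (adjusted p = 0.0711), without T98G (0.435), after centring of each library on its median (0.170), after rescaling of the listed genes to a common sum (0.204), all in limma, and with a paired t-statistic (0.637). The depth was 52.3 to 104 M reads per library. It was lowest in siControl cells of U251, at 52.3 M against 101 M in siHOTAIRM1 cells of that line. The 14294 genes averaging 1 CPM or more were tested. All 32 genes passed this filter, with at least 96.0 reads for each in each library, so counting error was small for nearly all. VIM and CD44, which glioma cells express, were at 254 to 1794 CPM in all libraries. Other glial markers differed between the lines: GFAP reached 20.7 to 42.5 CPM in U251 and was at most 0.317 CPM elsewhere, SOX9 was at 0.0228 to 0.0290 CPM in LN-229, and S100B was listed at 0 and NES at no more than 0.956 CPM in T98G. Of 7 markers of blood, epithelium and endothelium, 5 stayed under 1 CPM in all libraries, and their summed level was 0.309 to 2.99 CPM.

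The listed genes held 42.9 to 67.2% of the reads that each library was scaled to. This share went from 47.0 to 48.5% in LN-229, from 50.2 to 42.9% in T98G and from 67.2 to 55.9% in U251 on knock-down. In U251 the abundant small RNAs 7SL and 7SK took 17.9% of the listed reads in siControl and 11.5% in siHOTAIRM1 cells, against 9.84 and 11.0% in LN-229 and 8.40 and 7.59% in T98G. The median change of all genes tested on the scale of log2(CPM + 1) was 0.01, -0.19 and -0.03 in LN-229, T98G and U251. Changes are therefore given as deposited, and, where it matters, relative to this median or after the listed genes of each library were rescaled to a common sum.

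To show the sequence context that these genes share, promoter windows of RefSeq on GRCh38.p14, from 250 bases before to 50 bases after a transcription start, were searched for 3 short words on both strands. A window was held for 28 of the 32 genes (all but ACAT2, FASN, FDFT1 and SQLE). The NF-Y box CCAAT, which binds a partner of the SREBPs, was in a window of 20 of the 28 genes (71.4%) and of 44.2% of the 9458 tested genes with a window. The Sp1 box GGGCGG was in 27 of 28 (96.4%) and in 76.9% of the tested genes. Both boxes occurred together in 19 genes (67.9%), against 34.3%. The strict sterol regulatory element TCACNCCAC was in SREBF2 alone (1 of 28, 3.57%), against 1.5% of tested genes. By role, CCAAT was present in 5 of 6 genes of the mevalonate pathway and 8 of 9 from squalene to cholesterol, but in 3 of 7 of the sterol sensing and handling genes. It was absent from the windows of ABCA1, CYP51A1, ELOVL6, FADS1, INSIG2, PMVK, SCAP and SREBF1. The 47 distinct CCAAT boxes upstream of a start began at a median of 120.0 bases before it, counted from the nearest start, and the closest ended 19 bases before it. A match describes these letters in these windows and does not show binding.

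The windows below are printed on the strand of the gene. They belong to the gene with the sterol regulatory element and to 4 of the other genes whose levels are described at length. Not every box of IDI1, HMGCS1 and MSMO1 is printed, and ABCA1, CYP51A1 and ELOVL6, also described at length, had no CCAAT. Whether a box goes with a change on knock-down was not tested. Capitals mark the matched word, with ATTGG for a CCAAT read on the other strand.
SREBF2 sterol regulatory element, chr22:41832962-41832991, plus strand: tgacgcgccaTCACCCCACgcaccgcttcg
SREBF2 NF-Y box, chr22:41832987-41833016, plus strand: cttcgctcgcccATTGGctgagatgagcct
IDI1 NF-Y box, chr10:1048956-1048985, minus strand: ctggcgcgagcgATTGGctgcgcggcccgg
INSIG1 NF-Y box, chr7:155297696-155297725, plus strand: cgccggcctcccATTGGttgcggccgcctc
HMGCS1 NF-Y box, chr5:43313495-43313524, minus strand: ctaccggccgcgATTGGctgtgggagccac
MSMO1 NF-Y box, chr4:165327581-165327610, plus strand: caactgcacagaCCAATcaccgcgccgaga
In SREBF2 the sterol regulatory element lay 133 to 125 bases and the NF-Y box 106 to 102 bases before the start. The boxes shown for IDI1, INSIG1, HMGCS1 and MSMO1 began 87, 170, 100 and 76 bases before a start.

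The level of these genes was compared first between genes, per kilobase of the canonical transcript of GENCODE 44. SCD, the desaturase that makes oleic acid from stearic acid, was highest in every line, with a mean of 166 CPM per kb over the 6 libraries and 279 CPM per kb in U251. FDPS, which makes farnesyl diphosphate, followed with 55.6 CPM per kb, FADS2 with 50.9 and ACLY, which supplies cytosolic acetyl-CoA, with 43.98. INSIG1 stood at 38.3 CPM per kb and its relative INSIG2 at 3.20. TM7SF2, a sterol reductase, had the lowest mean, at 2.85 CPM per kb, close to SC5D at 3.20 and MVK at 3.44. The order below SCD was not alike in the lines. TM7SF2 was lowest in LN-229 and T98G, at 0.933 and 0.873 CPM per kb, but stood at 6.74 in U251, above SC5D (2.56), MVD (2.74) and MVK (3.26). In T98G FADS2 (89.3 CPM per kb) and in U251 ACLY (60.8) lay above FDPS (42.5 and 53.9). Summed over the 7 genes, fatty acid synthesis took more of the library than the 18 cholesterol enzymes, with 1200.5 against 759 CPM in siControl cells of LN-229, 1655 against 636 in T98G and 2486 against 804 in U251. SCD alone held 476, 738 and 1651 CPM of these fatty acid sums in LN-229, T98G and U251. The sums are in CPM and were not divided by transcript length.

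**Figure D1:**
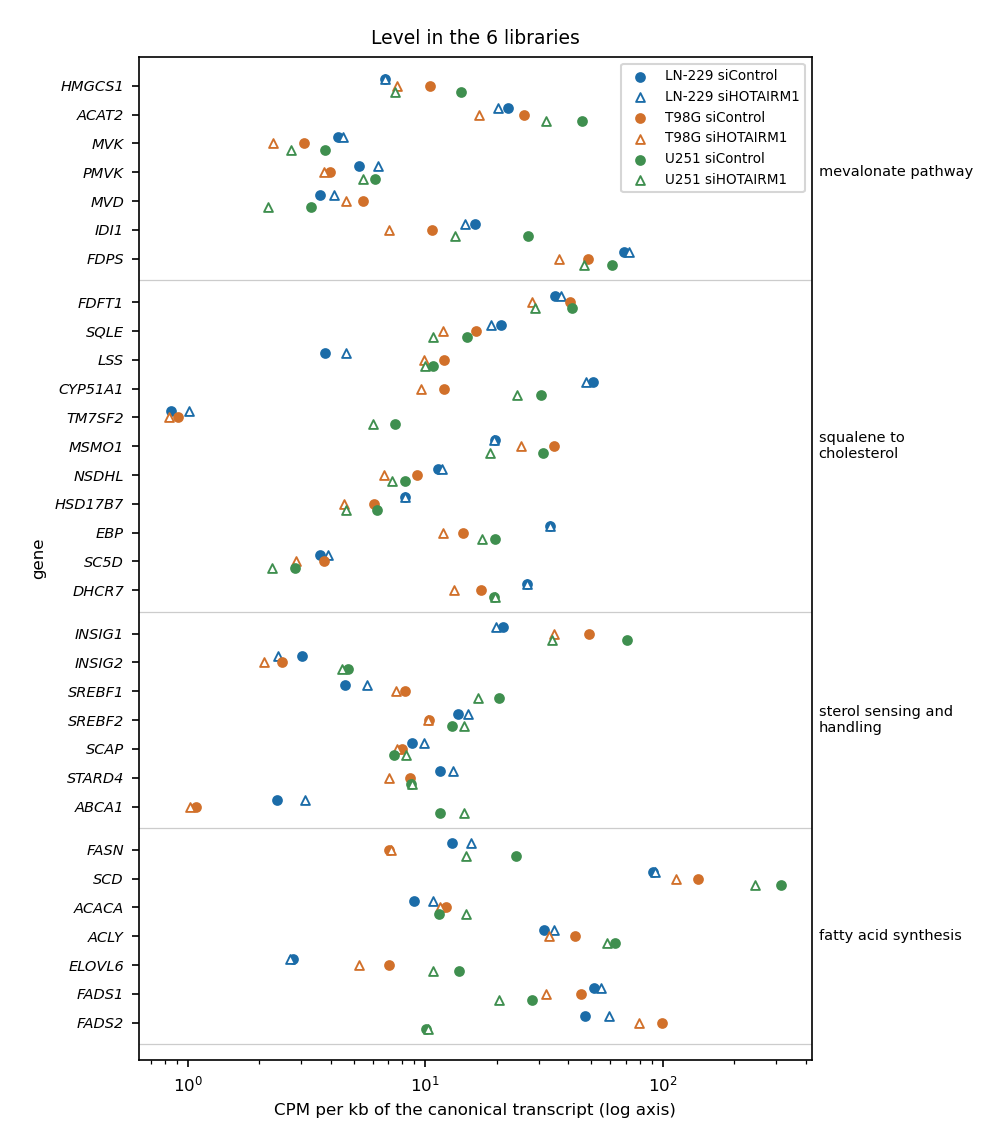
Level of each of the 32 genes in each of the 6 libraries, in CPM per kb of the canonical transcript on a log axis, with the genes in rows by role. Filled circles are siControl and open triangles siHOTAIRM1 cells, 1 library each, coloured by cell line; SCD lies farthest right, ABCA1 and FADS2 spread most between lines, and SCAP and FDFT1 least.

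The 3 cell lines differed from each other in most of these genes. Between LN-229 and T98G, 21 of 32 (65.6%) passed the threshold in limma with condition as covariate, against 54.9% of all genes tested, and 15 of them were higher in LN-229. Between LN-229 and U251 the count was 22 (68.8%, background 60.6%), with 11 higher in either line. Between T98G and U251 it was 17 (53.1%, background 64.2%), and 14 of these were lower in T98G. In 1 or more of the 3 pairs of lines, 29 genes (90.6%) passed, against 84.8% of all genes. Differences of at least 1 on the log2 scale between any pair of lines were found for 13 genes (40.6%), close to the 41.7% of all genes. These shares lie near those of all genes and are no result about the group. The spread in this fit came from 2 libraries per line and was drawn towards that of genes at like levels. A line is a single culture lineage, so the p-values compare these libraries and rest largely on spread borrowed from other genes.

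ABCA1, on chromosome 9 (104781006 to 104928155, minus strand, GENCODE 44 on GRCh38), varied most. It stood at 24.7 and 32.6 CPM in siControl and siHOTAIRM1 cells of LN-229, at 11.3 and 10.6 in T98G, and at 120.03 and 151 in U251. U251 was 11.3-fold above T98G on the scale of CPM + 1 (log2 difference between T98G and U251 -3.50, SE 0.18, adjusted p = 7.6e-19, limma), and no library of one line reached those of another. FADS2, the delta-6 desaturase of polyunsaturated fatty acids (chromosome 11, 61792980 to 61867354, plus strand), showed the reverse order of these lines. It was at 146 and 183 CPM in LN-229, 307 and 245 in T98G, and 31.0 and 31.6 in U251. T98G was 8.52-fold above U251 (log2 difference 3.09, SE 0.19, adjusted p = 3.8e-16, limma). FADS1, the delta-5 desaturase beside it, had 142 bases of exon overlapping FADS2 on the other strand, and reads of this stretch cannot be assigned. FADS1 was also lowest in U251, at 122.5 and 89.1 CPM, against 225 and 240.1 in LN-229 and 198 and 141 in T98G, with a much smaller gap.

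TM7SF2, on chromosome 11 (65111845 to 65116384, plus strand), was highest in U251. It stood at 11.7 and 9.51 CPM there, at 1.35 and 1.60 in LN-229 and at 1.43 and 1.32 in T98G. The log2 difference between T98G and U251 was -2.28 (SE 0.17, adjusted p = 2.9e-14, limma), while LN-229 and T98G differed by 0.06 (adjusted p = 0.796), within their spread. CYP51A1, the lanosterol demethylase (chromosome 7, 92084987 to 92134803, minus strand), had its highest level in LN-229. Its level was 159.98 and 149.6 CPM in LN-229, 37.9 and 30.4 in T98G, and 96.6 and 76.5 in U251. LN-229 was 4.46-fold above T98G (log2 difference 2.16, SE 0.18, adjusted p = 9.5e-13, limma). Reads of CYP51A1 can be shared with its processed copies. Averaged over the libraries, CYP51A1P2 was listed at 13.8% and CYP51A1P1 at 7.20% of the level of the gene. ELOVL6, which elongates palmitate (chromosome 4, 110045846 to 110199199, minus strand), had a different level in each line, from 18.2 and 17.8 CPM in LN-229 to 46.2 and 34.7 in T98G and 91.3 and 71.0 in U251. LN-229 and U251 differed by -2.10 on the log2 scale (SE 0.18, adjusted p = 9.2e-13, limma).

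LN-229 had the highest mean level for 14 of the 32 genes, U251 for 14 and T98G for 4. In LN-229 these included 8 of the 11 genes from squalene to cholesterol, while in U251 they included FASN, SCD, ACACA, ACLY and ELOVL6, 5 of the 7 fatty acid genes. The matching shares of all genes were not counted, so these numbers are no result about the group. Some rest on small gaps. From the lowest to the highest line, FDFT1 differed 1.05-fold and ACACA 1.33-fold. SREBF1, which encodes the SREBP that favours fatty acid genes (chromosome 17, 17810399 to 17837002, minus strand), stood at 22.5 and 27.9 CPM in LN-229, 40.1 and 36.8 in T98G, and 99.7 and 81.8 in U251. It shares 120 bases of exon with RAI1 on the other strand, which had a mean of 16.8 CPM. All 3 of its differences between lines passed the threshold, with U251 3.51-fold above LN-229 (log2 difference between LN-229 and U251 -1.81, SE 0.18, adjusted p = 8.3e-11, limma). SREBF2 (chromosome 22, 41833105 to 41907306, plus strand) varied far less, from 53.6 to 79.6 CPM over all libraries. INSIG1 was lowest in LN-229, with a log2 difference of -1.24 from U251 (SE 0.20, adjusted p = 2.1e-06, limma). FDFT1, SCAP and ACACA passed the threshold in no pair of lines. For SCAP the difference between T98G and U251 was -0.00 with an SE of 0.17.

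On HOTAIRM1 knock-down, IDI1 fell, and it was the only one of the 32 genes past the threshold of the limma test over the 3 lines (1 of 32, 3.12%, against 2.0% of the 14294 genes tested). Of all genes, 1.59% fell and 0.413% rose past this threshold. The share is near the background and is no result about the group. At an unadjusted p under 0.05 there were 7 genes (21.9%, background 18.3%), HMGCS1, ACAT2, IDI1, FDFT1, SQLE, MSMO1 and INSIG1, all of them lower after knock-down. In the fit 26 of 32 genes were lower (81.2%, background 63.8%), but 22 when each library was centred on its median (68.8%, background 48.4%) and 18 when the listed genes were rescaled to a common sum (56.2%, background 40.2%). In all 3 lines 10 genes (31.2%) were lower, against 28.1% of all genes, and 0 were higher in all 3 (background 11.4%). Relative to the median of each line, 11 genes (34.4%) were lower in all 3, against 22.5%.

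The number of genes that were lower was not alike in the lines. In RNA of whole cultures, less of a transcript per cell and fewer cells that express it cannot be told apart. In LN-229, 11 of 32 were lower after knock-down, against 46.3% of all genes tested, and 1 was lower by at least 0.3 on the log2 scale (background 3.87%), while 2 were higher by as much (background 6.24%). In T98G, 31 of 32 were lower (background 79.3%), 19 of them by at least 0.3 (background 31.8%), and 0 were higher by as much (background 2.43%). In U251, 25 of 32 were lower (background 53.2%), 17 of them by at least 0.3 (background 23.7%), and 2 were higher by as much (background 16.4%). Lower by at least 0.3 in both T98G and U251 but not in LN-229 were 15 genes (46.9%), against 12.6% of all genes. The 32 genes were chosen with earlier results of these data known, so this contrast is a description and no test. The steps of 0.3 were mostly lost after rescaling, which moved the median of all genes tested in U251 from -0.03 to 0.18. Lower by at least 0.3 were then 1 gene in LN-229 (INSIG2, background 6.64%), 3 in T98G (ACAT2, IDI1 and FDFT1, background 9.46%), 5 in U251 (background 10.8%) and 1, IDI1, in both and not in LN-229 (3.12%, background 1.97%). The median change of the 32 genes was 0.08, -0.34 and -0.32 in LN-229, T98G and U251 as deposited, and 0.03, -0.12 and -0.06 after rescaling. For all genes tested it was 0.01, -0.19 and -0.03 as deposited, and -0.03, -0.00 and 0.18 after rescaling. T98G and U251 were also the lines in which listed genes took a smaller share of the reads after knock-down. After rescaling, 13, 24 and 19 of the 32 genes were lower in LN-229, T98G and U251, beside 8135, 7199 and 4416 of the 14294 genes tested. Whether the lines differed in their response was not tested, since each has 1 pair of libraries.

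**Figure D2:**
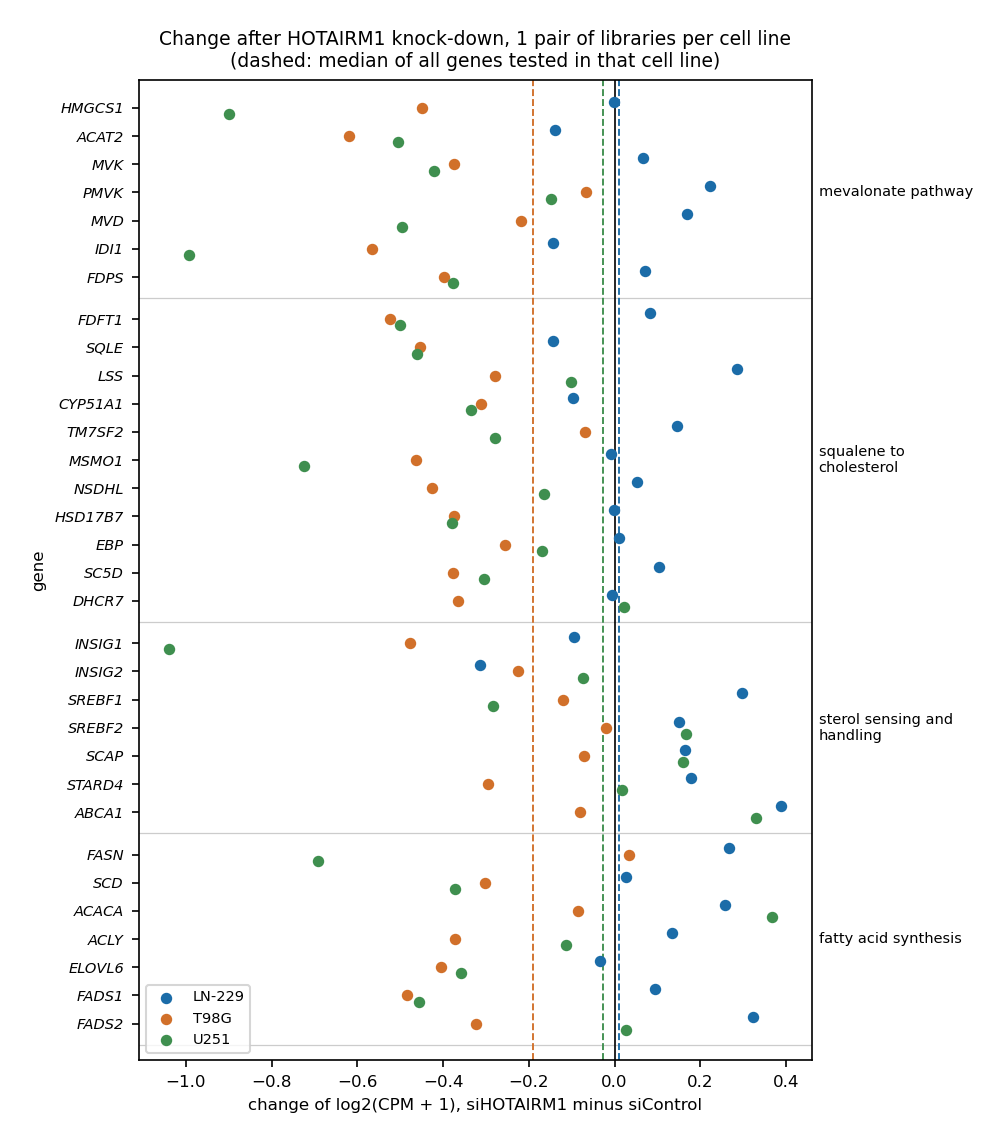
Change of each of the 32 genes on HOTAIRM1 knock-down, as siHOTAIRM1 minus siControl on the scale of log2(CPM + 1), with 1 point per cell line and genes in rows by role. Dashed lines mark the median of all genes tested in that line (0.01, -0.19 and -0.03 in LN-229, T98G and U251); the points of T98G and U251 lie mostly to the left of those of LN-229, and IDI1 and INSIG1 in U251 lie farthest left.

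Among the 7 genes of the mevalonate pathway, the median change was 0.07, -0.40 and -0.50 in LN-229, T98G and U251, and 0.02, -0.19 and -0.24 after rescaling. All 7 were lower in T98G and in U251 and 3 in LN-229, against 79.3%, 53.2% and 46.3% of all genes tested. After rescaling, 6 were lower in T98G and 6 in U251, beside 7199 and 4416 of the 14294 genes tested. IDI1, the isomerase that makes dimethylallyl diphosphate (chromosome 10, 1039152 to 1049119, minus strand), stood at 44.4 and 40.1 CPM in siControl and siHOTAIRM1 cells of LN-229, 29.2 and 19.4 in T98G, and 73.8 and 36.6 in U251. It was lower after knock-down in each line, by 9.69%, 33.6% and 50.5%, although the ranges of the conditions overlapped across lines. It fell by 0.57 on the log2 scale in the fit (SE 0.15, adjusted p = 0.0425, limma). The call was lost without T98G (log2 change -0.57, adjusted p = 0.581), without U251 (-0.36, adjusted p = 0.697), after median centring (-0.49, adjusted p = 0.183) and after rescaling (-0.43, adjusted p = 0.252, all limma). The adjusted p was 0.00814 with a pseudocount of 0.1 and 0.980 without the filter in limma, and 0.637 with a paired t-statistic of each gene alone.

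HMGCS1, which condenses acetyl-CoA with acetoacetyl-CoA, was at 36.3 CPM in both libraries of LN-229, at 56.1 and 40.8 in T98G, and at 75.5 and 39.99 in U251. LN-229 showed no difference beyond counting error (95% interval of the log2 ratio -0.07 to 0.07), and U251 showed a log2 ratio of -0.92 (-0.98 to -0.85). The fitted change of -0.45 did not pass the threshold (SE 0.15, adjusted p = 0.110, limma), and was -0.23 without U251 and -0.67 without LN-229. ACAT2, the cytosolic thiolase of the first step, was at 33.9 and 30.7 CPM in LN-229, 39.7 and 25.5 in T98G, and 69.7 and 48.8 in U251. It was lower in all 3 lines, with the largest difference of the 32 genes in T98G (-0.62), but missed the threshold (-0.42, SE 0.14, adjusted p = 0.110, limma). Its exons share 454 bases with TCP1 on the other strand, a gene with a mean of 149 CPM and a change of -0.43 in T98G, and 98 bases with SOD2, with a mean of 125 CPM and changes of 1.12, -1.33 and -0.14 in LN-229, T98G and U251. The part of such reads was not tested. PMVK, phosphomevalonate kinase, was at 5.27 and 6.31 CPM in LN-229, 3.97 and 3.74 in T98G, and 6.18 and 5.48 in U251, a fitted change of 0.00 (SE 0.14). The kinase MVK and the decarboxylase MVD had changes of 0.07 and 0.17 in LN-229, -0.38 and -0.22 in T98G, and -0.42 and -0.50 in U251. FDPS had changes of 0.07, -0.40 and -0.38 in LN-229, T98G and U251.

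Of the 11 genes from squalene to cholesterol, 5 were lower in LN-229, all 11 in T98G and 10 in U251, with median changes of 0.01, -0.37 and -0.30. The background of genes that were lower was 46.3%, 79.3% and 53.2% in these lines. After rescaling, the medians were -0.03, -0.16 and -0.05, and 7 of 11 were lower in U251, beside 4416 of the 14294 genes tested. FDFT1, squalene synthase, was at 71.3 and 75.6 CPM in LN-229, 82.7 and 57.3 in T98G, and 84.3 and 59.2 in U251. SQLE, squalene epoxidase, the other early step of this branch, was at 61.9 and 55.96 CPM in LN-229, 48.4 and 35.1 in T98G, and 44.5 and 32.1 in U251. Both had similar differences in T98G and U251 (-0.52 and -0.50 for FDFT1, -0.45 and -0.46 for SQLE). Neither passed the threshold (adjusted p = 0.267 for FDFT1 and 0.179 for SQLE, limma).

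MSMO1, the sterol C4 methyl oxidase, was at 43.6 and 43.4 CPM in LN-229, 77.9 and 56.3 in T98G, and 69.5 and 41.7 in U251. It had the largest difference of this branch in U251, with -0.72, and did not differ in LN-229 beyond counting error (-0.07 to 0.06). Its fitted change of -0.40 had an adjusted p of 0.147 in limma, and was -0.23 without U251. CYP51A1, with the levels given above, was lower in all 3 lines, by -0.10, -0.31 and -0.33. HSD17B7, NSDHL and SC5D had changes of -0.00, 0.05 and 0.10 in LN-229, -0.37, -0.43 and -0.38 in T98G, and -0.38, -0.16 and -0.30 in U251. Reads of HSD17B7 can be shared with HSD17B7P2, listed at 7.13% of its level averaged over the libraries. LSS, which cyclises squalene epoxide, went from 18.4 to 22.7 CPM in LN-229, from 58.5 to 48.1 in T98G and from 52.5 to 48.8 in U251, and so was higher in LN-229 alone as deposited. After rescaling, its change in U251 was 0.16, beside a median of 0.18 for all genes tested. TM7SF2 had a fitted change of -0.07 and EBP of -0.14, and each was positive after rescaling, at 0.06 and 0.00. DHCR7, the last reductase of the route, had changes of -0.01 in LN-229, 0.02 in U251 and -0.37 in T98G.

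**Figure D3:**
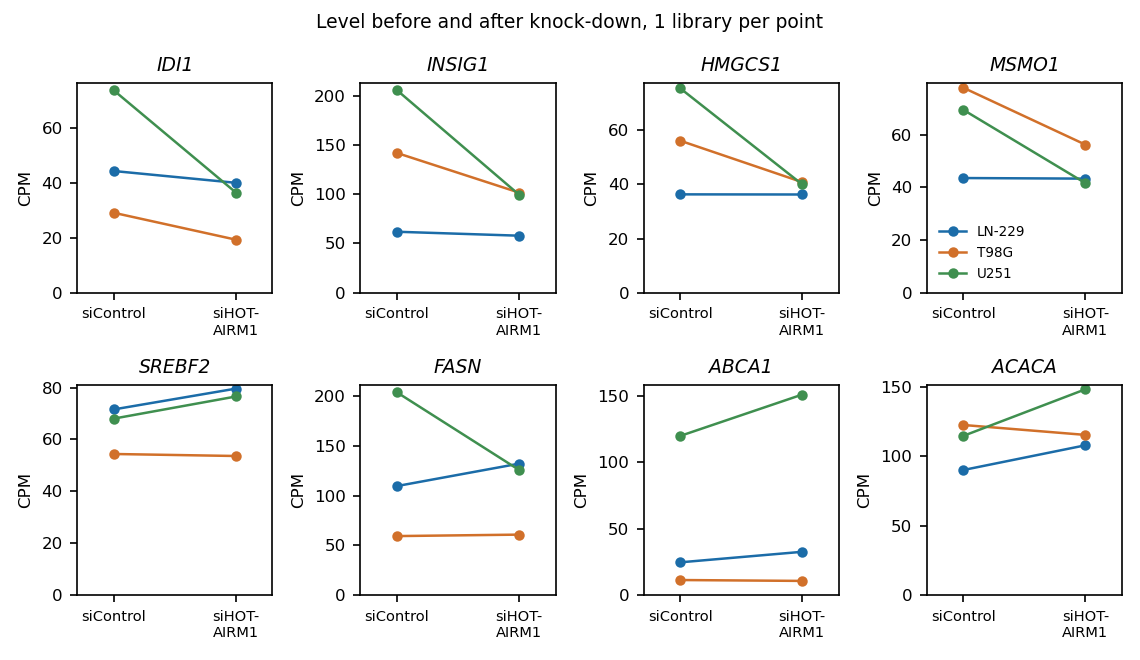
Level of 8 genes in CPM in siControl and siHOTAIRM1 cells, with 1 library per point and lines joining the libraries of a cell line. The lines of IDI1, INSIG1, HMGCS1 and MSMO1 slope down most in U251 and least in LN-229. SREBF2 slopes up slightly in LN-229 and U251, and FASN and ACACA slope in different directions in different cell lines.

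The sterol sensing and handling genes had no common direction. Of the 7, the numbers lower in LN-229, T98G and U251 were 2, 7 and 3, with medians of 0.16, -0.12 and 0.02. Of all genes tested, 46.3%, 79.3% and 53.2% were lower, and 3 of the 7 lay below the median of all genes in T98G. After rescaling, the median in T98G turned positive (0.10) and that in U251 was 0.28, beside -0.00 and 0.18 for all genes tested. INSIG1, itself a target of the SREBPs (chromosome 7, 155297776 to 155310235, plus strand), stood at 61.9 and 57.9 CPM in LN-229, 142 and 102 in T98G, and 205 and 99.5 in U251. It was lower in all 3 lines, and its difference of -1.04 in U251 (log2 ratio -1.05, 95% interval of counting error -1.09 to -1.01) was the largest of the 32 genes. Over the lines it missed the threshold (-0.54, SE 0.16, adjusted p = 0.0741, limma), and it passed with a pseudocount of 0.1 alone (adjusted p = 0.0239). Without U251 its change was -0.29 (adjusted p = 0.851), and the adjusted p was 0.581 without T98G, 0.0514 without LN-229, 0.209 after centring and 0.284 after rescaling in limma. INSIG2 (chromosome 2, 118088452 to 118110997, plus strand) was lower in LN-229 and T98G, while its counting interval in U251 held 0 (log2 ratio -0.20 to 0.04). After rescaling, when all genes tested had a median of 0.18 in U251, its change there was 0.18. It was at 10.8 and 8.52 CPM in LN-229, 8.88 and 7.45 in T98G, and 16.8 and 15.9 in U251 (fitted change -0.20, SE 0.14, adjusted p = 0.456, limma).

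SREBF2 was at 71.6 and 79.6 CPM in LN-229, 54.4 and 53.6 in T98G, and 68.1 and 76.6 in U251. It was higher beyond counting error in LN-229 (log2 ratio 0.11 to 0.20) and U251 (0.11 to 0.23), and in T98G its interval held 0 (-0.09 to 0.04). Its fitted change was 0.10 (SE 0.15, adjusted p = 0.757, limma), and it stayed above 0 under median centring and rescaling. SREBF1, with the levels given above, differed by 0.30, -0.12 and -0.28 in LN-229, T98G and U251, and its fitted change of -0.04 turned positive after centring (0.04) and rescaling (0.11). RAI1, which overlaps it on the other strand, changed by 0.31, 0.22 and 0.33, and the part of such reads was not tested. SCAP had a pattern close to that of SREBF2, with 0.16, -0.07 and 0.16, and 0.15, 0.12 and 0.19 relative to the median. STARD4, which moves cholesterol between membranes, had changes of 0.18, -0.30 and 0.02. ABCA1 was higher in LN-229 by 32.2% and in U251 by 26.0%, beyond counting error in both (log2 ratio 0.33 to 0.48 and 0.29 to 0.38), and in T98G its interval held 0 (-0.23 to 0.06). Its fitted change was 0.21 (SE 0.14, adjusted p = 0.440, limma). In U251, INSIG1 and ABCA1 thus had the largest differences of this group in opposite directions.

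The fatty acid genes differed in direction between the lines. Of 7 genes, the numbers lower in LN-229, T98G and U251 were 1, 6 and 5, against 46.3%, 79.3% and 53.2% of all genes tested. Their medians were 0.13, -0.32 and -0.36, and 0.09, -0.10 and -0.10 after rescaling. FASN, the synthase that makes palmitate (chromosome 17, 82078338 to 82098294, minus strand), was at 110 and 132 CPM in LN-229, 59.4 and 60.8 in T98G, and 204 and 126 in U251. After knock-down it was higher by 20.5% in LN-229 and lower by 38.3% in U251, both beyond counting error. ACACA, acetyl-CoA carboxylase, which supplies FASN with malonyl-CoA, was at 90.1 and 108 CPM in LN-229, 123 and 115 in T98G, and 115 and 148 in U251. In U251 these neighbouring enzymes of the pathway therefore differed in direction, with ACACA at 0.37 and FASN at -0.69. Over the lines neither passed the threshold (FASN -0.13, SE 0.17, adjusted p = 0.718; ACACA 0.18, SE 0.16, adjusted p = 0.563, limma).

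SCD was at 476 and 484 CPM in LN-229, 738 and 598 in T98G, and 1651 and 1276 in U251, with a fitted change of -0.22 (SE 0.21). ACLY changed by 0.13, -0.37 and -0.11, and ELOVL6 by -0.03, -0.41 and -0.36. FADS1 was at 0.09, -0.49 and -0.46 in the same order of lines. FADS2 was at 0.32 in LN-229 and -0.32 in T98G. In U251, the line with its lowest level, it did not differ beyond counting error (-0.06 to 0.11). None of these 5 genes passed the threshold in limma, with adjusted p-values from 0.323 for ELOVL6 to 0.984 for FADS2.

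**Figure D4:**
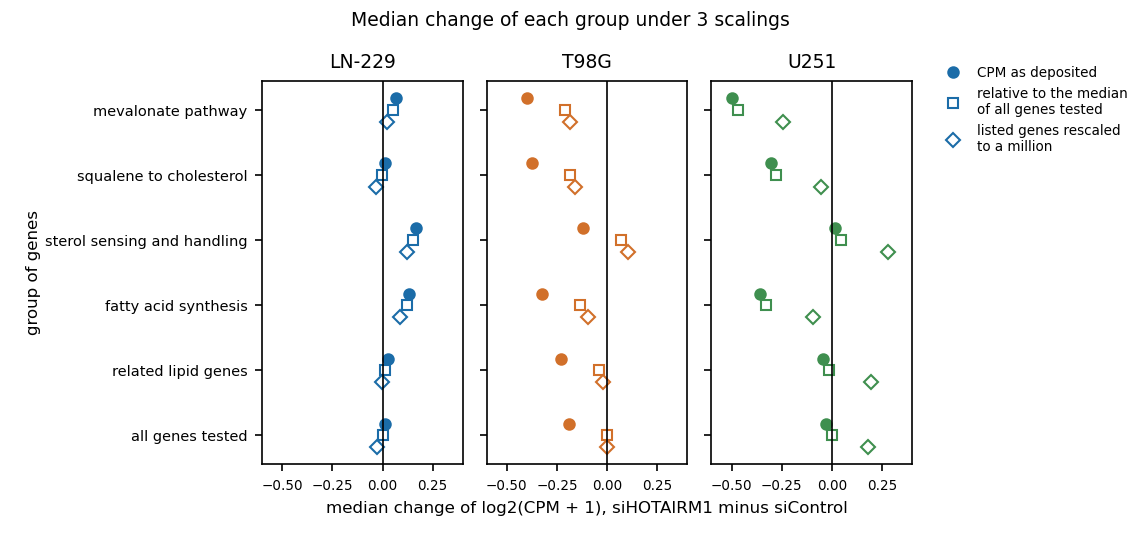
Median change on HOTAIRM1 knock-down of each group of genes in each cell line, on the scale of log2(CPM + 1). Filled circles are the CPM as deposited, squares the change relative to the median of all genes tested, and diamonds the change after the listed genes were rescaled to a common sum; in T98G and U251 the mevalonate genes lie below all genes on each of the scales (-0.50, -0.47 and -0.24 in U251), and rescaling moves every group of U251 to the right.

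The 18 cholesterol enzymes had a median change of 0.03, -0.38 and -0.38 in LN-229, T98G and U251. In these lines 8, 18 and 17 of them were lower, against 46.3%, 79.3% and 53.2% of all genes tested. After rescaling 9, 16 and 13 were lower, beside 8135, 7199 and 4416 of the 14294 genes tested. The medians were then -0.01, -0.18 and -0.13, beside -0.03, -0.00 and 0.18 for all genes. Relative to genes of like transcript length (10 bins), a comparison added after the data were seen, they were 0.01, -0.15 and -0.31. In T98G and U251 the enzymes thus lay below all genes on each of the 3 scales, whereas in LN-229 they lay within 0.02 of them. These medians carry no test.

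Beyond the 32 genes, 53 related lipid genes were read from the same fit, of which 51 passed the filter and ABCG1 and CH25H did not. COQ2, which attaches the isoprenoid tail in ubiquinone synthesis, was the only one past the threshold (1.96%, against 2.0% of all genes tested). It was lower in all 3 lines, from 7.91 to 5.80 CPM in LN-229, from 6.04 to 4.02 in T98G and from 16.0 to 7.15 in U251 (log2 change -0.65, SE 0.15, adjusted p = 0.0170, limma). The call was lost without any one of the lines (adjusted p = 0.0578 without LN-229, 0.581 without T98G and 0.376 without U251) and after centring or rescaling (0.163 and 0.207, limma). At an unadjusted p under 0.05 there were 6 genes (11.8%, background 18.3%). RNF139, ELOVL1, ACSL4 and DGAT1 were lower besides COQ2, and SCARB1, a receptor for high-density lipoprotein, was higher (0.36, 0.23 and 0.71 in the 3 lines, adjusted p = 0.104, limma). The site proteases MBTPS1 and MBTPS2, which release the SREBPs, had fitted changes of -0.11 and -0.09. The median change of the 51 genes was 0.03, -0.23 and -0.04 in LN-229, T98G and U251, within 0.05 of that of all genes.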

How the data were processed

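Total RNA of 6 cultures was sequenced (TruSeq RNA v2 libraries on a HiSeq). Per the paper and the submitters' processing notes, the authors aligned reads to hg38 with STAR 2.4.1d in Partek, aligned the remainder with Bowtie 2, and quantified Ensembl release 84 by Expectation-Maximization. The table deposited by the authors holds CPM with 0.0001 added, scaled to more reads than fell on the listed genes. The kit does not mark the strand of a read. The worth of 1 read was read from the steps between low values; 82.2 to 83.7% of values came within 0.03 of a whole read, so no test for counts was used.

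Levels were taken as log2(CPM + 1). For the 14294 genes averaging 1 CPM or more, a model with cell line as a blocking factor and a trend of variance with mean level was fitted in limma 3.58.1 under R 4.3.3. P-values were adjusted after Benjamini and Hochberg over all of these genes, at a threshold of 0.05. Lines were compared in the same fit with 3 pairwise contrasts. Libraries of the same line deviated together from the means of their conditions (r 0.948 to 0.967 across genes), and the pairing comes from the cell line. For libraries of different lines and conditions r was -0.505 to -0.467. Deviations from a mean of 3 lines make this value negative, so it says nothing about the pairing. Intervals within a line are 95% intervals that cover counting error only. The limma p-values rest on the spread between these libraries, shared in large part over genes of like level, and on no other spread. The spread of a gene alone can differ. The SE of the knock-down change of IDI1 was 0.15 in limma and 0.25 with the paired t-statistic. For HOTAIRM1 it was 0.12 and 0.040.

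Described in full were genes past the knock-down threshold, the 3 highest and the 3 lowest changes of each line, INSIG1, INSIG2, SREBF1 and SREBF2, and the 5 largest differences between lines; MSMO1, SCD, FADS1 and others were added after their values were seen. The members and lists were chosen with earlier results of these data known. Alternatives were no block, a paired t-statistic, median centring, rescaling, no filter, a pseudocount of 0.1, leaving out each line and, added later, comparison by transcript length. Lengths are those of GENCODE 44. Python 3.11.15 with pandas 2.3.3 and matplotlib 3.10.9 served for the rest.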

Additional observations from a re-analysis of the deposited data

Results flagged for a closer look

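SREBF1 and FASN differed from control in opposite directions in LN-229 and U251, each by at least 0.25 on the log2 scale. After knock-down, SREBF1 stood at 0.30 in LN-229 and at -0.28 in U251, a difference of 0.58 between the changes. RAI1, which shares exon bases with SREBF1 on the other strand, was at 0.31 and 0.33 in these lines. FASN stood at 0.27 and -0.69 in these lines, a difference of 0.96. With 1 pair of libraries in each line, these differences were not tested. After rescaling, SREBF1 was at 0.26 and -0.02, and FASN at 0.22 and -0.43. The median of all genes tested was then -0.03 in LN-229 and 0.18 in U251.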

How the results depend on the processing

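The count of all genes called went from 286 to 41 with median centring, 25 after rescaling, 0 without the filter, 683 with a pseudocount of 0.1, 0 with the paired t-statistic and 0 to 270 when a line was left out. Of the 32 genes, 2 were called with a pseudocount of 0.1 and 0 in the other settings, with 0 to 1 when a line was left out. Of the related genes 2 were called with that pseudocount and 0 in every other setting. Without the cell line as replicate block, 0 genes were called among all, the 32 and the related. Where 0 of all genes were called, the number at an unadjusted p under 0.05 was 2153 in limma without the filter, 29 in limma without the block, 896 with the paired t-statistic and 1206 in limma without T98G, and of the 32 genes it was 2, 0, 0 and 3. Between lines, no filter left 2, 5 and 5 of the 32 genes past the threshold. The causes were not tested. IDI1 and HOTAIRM1 were lower in every setting, and HOTAIRM1 kept its call with the pseudocount of 0.1 and without U251 alone. Medians of groups moved with rescaling. For squalene to cholesterol they went to -0.16 in T98G and -0.053 in U251, and for sterol sensing and handling to 0.10 and 0.28. In U251 they went to -0.13 for the cholesterol enzymes and -0.062 for the 32 genes. That of all genes tested went to -0.00 in T98G and 0.18 in U251. Centring gave 0.076 for sterol sensing and handling in T98G, and the comparison by transcript length -0.13 for squalene to cholesterol there.

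Fitted changes near 0 turned sign. With centring and rescaling, LSS was at 0.046 and 0.12, TM7SF2 at 0.011 and 0.065, SREBF1 at 0.043 and 0.11 and STARD4 at 0.045 and 0.11. With rescaling alone, EBP was at 0.0029, DHCR7 at 0.030, FASN at 0.019 and ACLY at 0.032. With a line left out, the range was -0.11 to 0.077 for PMVK, -0.19 to 0.091 for LSS, -0.17 to 0.038 for TM7SF2, -0.19 to 0.0081 for DHCR7, -0.20 to 0.088 for SREBF1, -0.14 to 0.098 for STARD4, -0.33 to 0.15 for FASN, -0.24 to 0.010 for ACLY and -0.15 to 0.18 for FADS2.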
